A study of Mus musculus with 60 samples.

Results

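RNA of mouse C3H10T1/2 cells was compared between the populations labelled 23-CATA and 23-NC at day 2 of adipocyte differentiation. The members are the 6 libraries whose titles carry those names and that day, 3 per population, out of 60 libraries in the series. C3H10T1/2 is a mesenchymal line from mouse embryo that can turn into adipocytes, bone or cartilage cells. The series title ties TET1, an enzyme that oxidises methylated cytosine, to adipogenesis. Confluent cells of both populations were induced at day 0 in DMEM with 10% FBS and 5 agents: rosiglitazone at 1 µM, insulin at 10 µg/ml, dexamethasone at 1 µM, the thyroid hormone T3 at 1 nM and the phosphodiesterase inhibitor 3-isobutyl-1-methylxanthine at 0.5 mM. That medium was exchanged after 48 h, at day 2, for medium with 5 µg/ml insulin, and the labels do not say whether the cells were harvested before or after the exchange. They do not explain "23", "NC" or "CATA" either, nor how the populations were made, whether each was a clone, or whether the 3 libraries of a group were grown apart. Tests therefore speak of the spread among these libraries, which may be technical. Untreated day 0 libraries of both populations, and day 2 libraries of a further population labelled 23-Tet1, were the points of comparison, with 3 libraries in each.

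Fat cells form in steps. Hormones in the induction medium raise C/EBPβ and C/EBPδ, which turn on PPARγ and C/EBPα, and that pair then holds on the genes of fat uptake, triglyceride assembly, lipolysis and hormone secretion. Rosiglitazone is a ligand of PPARγ. Precursor cells meanwhile give up fibrillar collagens and contractile actin, and mitochondria multiply.

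Depth, read from the spacing of the lowest values, was 14.6 to 18.5 M fragments in the 23-NC and 13.2 to 14.5 M in the 23-CATA libraries, and between 14379 and 14670 genes stood above 0 in each of the 6. Values are FPKM, fragments per transcript length and per mapped total, which can be set side by side between genes. Differences below are 23-CATA minus 23-NC in mean log2(FPKM + 1) ± SE, a scale that understates changes of genes near or under 1 FPKM. A gene was called at a limma adjusted p under 0.05. The filter on low values ran over 36 libraries, not these 6 alone, and kept 12231 of 24982 genes. Of markers of other cell types it kept 4 of 13 for macrophages and leukocytes, 3 of 10 for endothelium and 2 of 13 for epithelium. It kept 5 of 16 for neural cells and 6 of 16 for skeletal and cardiac muscle. Epcam (epithelium), Myod1 (skeletal muscle), Stmn2 (neurons) and Tie1 (endothelium) were listed at 0 in all 6 libraries. Ptprc (leukocytes) averaged 0 and 0.00333 FPKM. Other members of these lists stood above 0. Pecam1 of endothelium averaged 0.2 FPKM in 23-NC and 0.293 in 23-CATA, and Tubb3 of neurons 0.207 and 0.0333. Egfl7 of endothelium averaged 3.83 FPKM in both. Summed over the list, macrophage and leukocyte markers ranged from 65.1 to 75 FPKM in 23-NC and from 26.6 to 30.8 in 23-CATA. Most of that sum was Cd68, a lysosomal glycoprotein (64.1 ± 5.14 and 25.9 ± 2.09 FPKM), and Cd74, the invariant chain of antigen-presenting cells, averaged 3.77 ± 0.512 and 0.82 ± 0.295. Muscle markers ranged from 26.8 to 30.3 and from 10.6 to 11.5, neural markers from 31.5 to 34.9 and from 16.9 to 17.9. Endothelial markers ranged from 10.5 to 11.5 and from 4.03 to 4.97. Some members were thus expressed, such as Tnni1 of muscle (8.61 and 1.88 FPKM) and Ncam1 and Map2 of neural cells (19.7 and 5.65, 7.88 and 1.62). All 6 muscle markers tested fell, and of 5 neural ones 3 fell, 1 rose and 1 did not pass. Of 3 endothelial ones Vwf fell (6.87 to 0.11 FPKM) and 2 did not pass. Over all genes tested 30.7% fell. The part of these cell types in the results was not tested.

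Tet1 RNA was nearly absent from 23-NC and present in 23-CATA. The gene encodes a methylcytosine dioxygenase (GRCm38 chromosome 10, 62804570 to 62887469). The 23-NC libraries held 0.02, 0.02 and 0.03 FPKM and the 23-CATA libraries 21.6, 16.8 and 18.4, a difference of 4.28 ± 0.11 (adjusted p = 1.35e-23). No value of the 23-NC group came near the other group. FPKM do not show which part of the transcript the fragments covered. Among its relatives, Tet3 rose from 5.7 ± 0.249 (mean ± SD, n = 3, as for all means below) to 9.59 ± 0.445 FPKM, whereas Tet2 did not pass, at 4.29 ± 0.397 and 5.01 ± 0.809. Of the 14 genes listed as writers and erasers of DNA methylation, 5 rose, 3 fell and 6 did not pass. Uhrf1, which brings the maintenance methyltransferase to replicated DNA, differed by 0.71 ± 0.07, and that methyltransferase, Dnmt1, by −0.42 ± 0.08. Gadd45b, a stress-induced gene linked to demethylation, had the largest fall in the list, from 27.3 ± 0.781 to 9.08 ± 0.105 FPKM. Idh1, a cytosolic source of 2-oxoglutarate, rose by 1.66 ± 0.09, while its mitochondrial counterpart Idh2 differed by −0.71 ± 0.07.

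At day 2 most of the transcriptome differed between the populations. Of 12231 genes tested, 7954 were called, 65.0%: 4198 higher in 23-CATA (34.3%) and 3756 lower (30.7%). The balance of directions turned with the scaling: median-ratio scaling gave 3993 higher and 4022 lower, and quantile normalisation gave 3807 higher and 4325 lower. A change of 1 log2 unit or more was called for 1427 genes (11.7%), 853 higher (6.97%) and 574 lower (4.69%). The median difference of all genes tested was 0.03, with quartiles at −0.32 and 0.39. Counts of list members have to be read against these shares. They cover members that passed the filter on low values, and a gene that passed through 1 group alone had to differ, so the counts describe the lists and support nothing by themselves. Where mixed cultures are sequenced, more cells of a kind and more RNA per cell cannot be told apart.

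**Figure D1:**
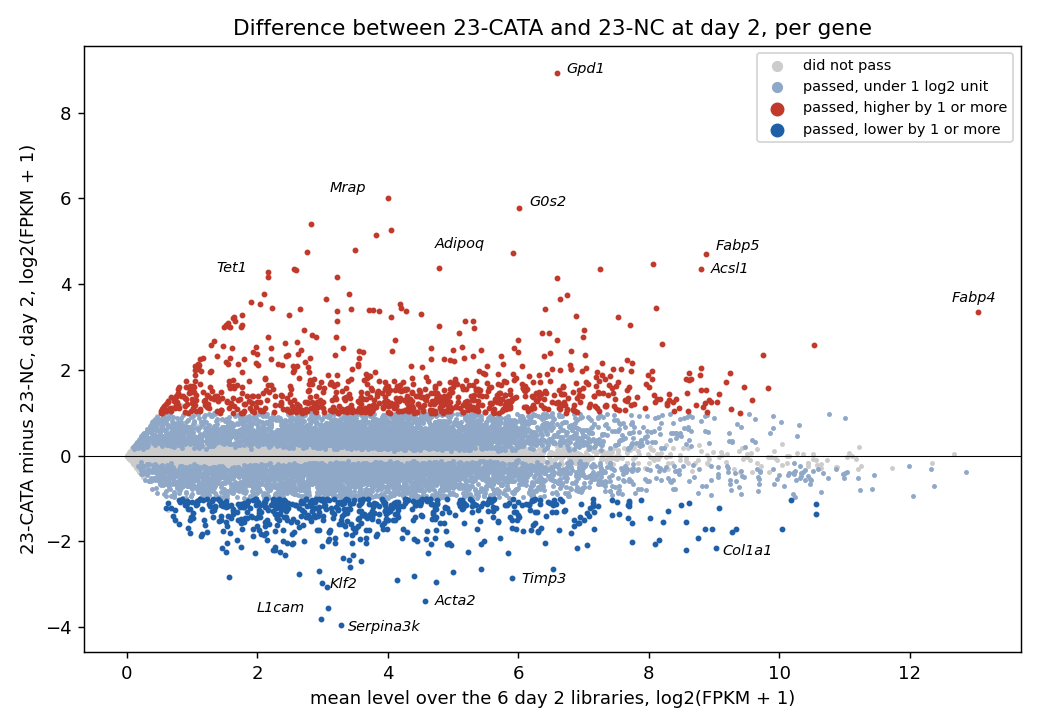
Each point is a gene: mean level over the 6 day 2 libraries (x axis, log2(FPKM + 1)) against the difference 23-CATA minus 23-NC (y axis, same scale), coloured by whether it passed the test and reached 1 log2 unit. Gpd1 stands highest at 8.91, and the largest falls, led by Serpina3k, reach −3.94.

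Genes of fat storage were among the largest rises, beside genes of several other kinds. Gpd1, which makes the glycerol-3-phosphate backbone of triglycerides (chromosome 15, 99717587 to 99725014), stood at 3.3, 3.28 and 3.61 FPKM in 23-NC and at 2117, 2052 and 2191 in 23-CATA, a difference of 8.91 ± 0.06 (adjusted p = 4.88e-38). All 3 libraries of each group lay close together and the groups were far apart. Mrap, an accessory protein of melanocortin receptors, followed with 0.58, 1.52 and 1.05 FPKM against 122, 126 and 137, a difference of 6.00 ± 0.11. G0s2, an inhibitor of adipose triglyceride lipase, stood at 7.47, 6.54 and 9.54 against 439, 466 and 533 FPKM and differed by 5.77 ± 0.18. For Mrap and G0s2, too, the groups did not overlap, as was so for 71.7% of all genes tested. The other genes of the 12 largest rises among genes with established names and at least 5 FPKM were Trf (5.39 ± 0.08), the iron carrier transferrin, Retnla (5.27 ± 0.16), a secreted resistin-like protein, Cmbl (5.14 ± 0.11), a hydrolase, and Ltc4s (4.75 ± 0.14), leukotriene C4 synthase. Adipoq (4.73 ± 0.09), Fabp5 (4.70 ± 0.12), the pyrophosphatase gene Ppa1 (4.47 ± 0.08), Adig (4.38 ± 0.18), an adipocyte membrane protein, and Acsl1 (4.35 ± 0.06), which activates long fatty acids, completed them. Trf was nearly absent from 23-NC, at 0.07, 0.13 and 0.08 FPKM, and stood at 45.1, 43.8 and 45.8 in 23-CATA.

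The transcription factors that run adipogenesis moved in different ways. Pparg, the nuclear receptor at the head of the programme (chromosome 6, 115360879 to 115490404), stood at 39, 42.2 and 42 FPKM in 23-NC and 100.5, 109.7 and 122 in 23-CATA, a difference of 1.40 ± 0.08 (adjusted p = 7.82e-16). Its partner Cebpa stood at 45.6, 44.2 and 50.7 against 239, 255 and 287 FPKM, a difference of 2.45 ± 0.08 (adjusted p = 9.05e-21). For both genes every 23-CATA library lay above every 23-NC library. The early factors did not pass: Cebpb held 92.2, 157 and 112 FPKM in 23-NC and 93.6, 74.2 and 98.9 in 23-CATA, with overlapping groups, and Cebpd averaged 128 ± 4.79 and 121 ± 4.24 (called lower, at −0.26, with quantile-normalised values). Rxra, which pairs with PPARγ on DNA, fell by 0.16 on the log2 scale, a call lost without 23-NC replicate 2 (adjusted p = 0.0615) or 23-CATA replicate 3 (adjusted p = 0.119). Nr1h3, the liver X receptor of adipocytes, rose from 0.733 ± 0.11 to 4.15 ± 0.284 FPKM, and Klf5, Ebf1 and Srebf1 rose by 1.01 ± 0.14, 0.84 ± 0.08 and 0.55 ± 0.08. Of 21 adipogenic factors tested, 9 rose, 5 fell and 7 did not pass, with a median of −0.08.

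**Figure D2:**
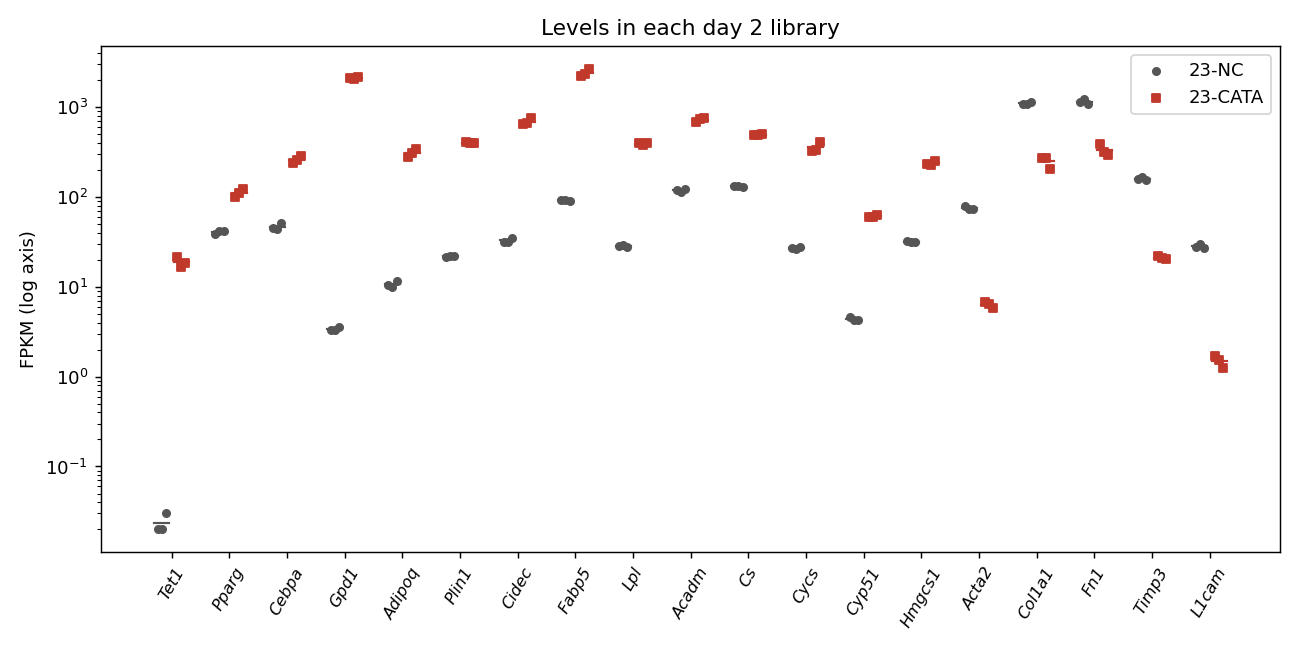
FPKM (log axis) of 19 genes in each day 2 library, circles for 23-NC and squares for 23-CATA, with a bar at the mean of 3. In every gene shown the symbols of the populations stay apart, with 23-CATA lower for Acta2, Col1a1, Fn1, Timp3 and L1cam and higher for the others.

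Genes that bring fat into the cell and coat the droplet were higher in 23-CATA. Of 14 uptake and binding genes tested, 10 rose, 3 fell and 1 did not pass, with a median of 1.11. Fabp4, the fatty acid-binding protein that makes up much of the adipocyte cytosol (chromosome 3, 10204342 to 10208616), was abundant in both groups, at 2732, 2539 and 2679 FPKM in 23-NC and 25696, 26127 and 29024 in 23-CATA (3.34 ± 0.26, adjusted p = 3.01e-12). It was the most abundant gene of its list in either population. Lpl, the lipase that frees fatty acids from lipoproteins, stood at 28.4, 29.2 and 27.8 against 396, 376 and 401 FPKM (3.74 ± 0.07), and Cd36, a fatty acid translocase, at 2.87, 2.86 and 3.42 against 38.6, 38.5 and 48.8 (3.40 ± 0.09). Aqp7, a glycerol channel, rose from 0.09 ± 0.101 to 9.56 ± 0.15 FPKM. The members that fell were Acsl3 (−0.96 ± 0.07), Acsl4 (−0.55 ± 0.10) and the receptor Lrp1 (−0.94 ± 0.18). Among 13 droplet genes 10 rose, 1 fell and 2 did not pass (median 0.79). Plin1, the coat protein of large droplets, went from 21.3, 22 and 22 to 408, 402 and 402 FPKM (4.15 ± 0.06), and Cidec, which fuses droplets, from 31.8, 31.9 and 34.7 to 649, 667 and 751 (4.35 ± 0.09). Bscl2 (seipin), which shapes nascent droplets, differed by 2.09 ± 0.11.

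Most genes of triglyceride assembly rose. Of 14 genes tested, 12 rose, 1 fell and 1 did not pass (median 1.65). After Gpd1, the acyltransferases Gpat3 (12.3 ± 0.34 to 116 ± 2.75 FPKM) and Agpat2 (82.6 ± 1.92 to 905 ± 41) moved most, and Dgat2 and Dgat1, which add the last fatty acid, rose by 2.76 ± 0.06 and 2.04 ± 0.09. Lpin2, a phosphatidate phosphatase, was the member that fell (−0.27 ± 0.09). Lipolysis genes rose as well, 15 of 15 tested, with a median of 1.58. Pnpla2, Lipe and Mgll encode the lipases that take off the fatty acids in turn. Their means were 201 ± 4.06, 59 ± 2.22 and 3.53 ± 0.223 FPKM in 23-NC, and 769 ± 61.1, 567 ± 16.6 and 46 ± 0.976 in 23-CATA. Hcar2, the niacin receptor, rose from 0.08, 0.28 and 0.16 to 14.5, 14.7 and 15.6 FPKM, and Pde3b, which ends the cAMP signal, by 1.75 ± 0.10.

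Secreted products split. Of 11 hormone and secreted-factor genes tested, 7 rose and 4 fell (median 0.65). Adipoq, the adiponectin gene (chromosome 16, 23146536 to 23157968), stood at 10.5, 10.1 and 11.7 FPKM in 23-NC and 280.1, 311 and 343 in 23-CATA (adjusted p = 4.83e-27). Retn (resistin) went from 0.347 ± 0.101 to 26.3 ± 3.34 FPKM. Leptin (Lep) was listed at 0 in all 6 libraries. Agt, which encodes angiotensinogen, fell from 857, 785 and 824 to 351, 386 and 328 FPKM (−1.21 ± 0.14), and Metrnl, a secreted meteorin-like protein, differed by −0.90 ± 0.11. In the insulin pathway 14 of 25 tested genes rose, 7 fell and 4 did not pass (median 0.29). Slc2a4, the insulin-regulated glucose transporter, rose from 1.74, 1.57 and 1.82 to 17.6, 19 and 17.6 FPKM. Igf1 and its binding proteins Igfbp6 and Igfbp5 were higher by 2.38 ± 0.08, 2.51 ± 0.22 and 1.98 ± 0.12. The binding protein Igfbp7 (−0.74 ± 0.14), the receptors Igf1r (−0.85 ± 0.12) and Igf2r (−0.81 ± 0.15) and the kinase Akt1 (−0.82 ± 0.06) fell.

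Nuclear genes of mitochondrial respiration were higher in 23-CATA. No gene symbol carried the mt- prefix of genes encoded in mitochondrial DNA, so the counts cover nuclear genes only. All 37 tested genes of the citrate cycle and respiratory chain were called higher, 31 of them by 1 log2 unit or more, with a median of 1.40 against 0.03 over all genes. Cycs, the electron carrier cytochrome c, moved most, from 27.1, 26.6 and 27.7 FPKM in 23-NC to 325, 334 and 411 in 23-CATA (3.66 ± 0.11, adjusted p = 4.57e-22). Citrate synthase (Cs) went from 133, 133 and 128 to 488, 486 and 497 FPKM, and Idh3a, a subunit of isocitrate dehydrogenase, differed by 2.69 ± 0.07. Idh3g had the smallest rise in the list, 0.59 ± 0.08. Fatty acid oxidation moved alongside, with 25 of 28 higher, 2 lower and 1 not passing (median 1.10). Acadm, the medium-chain acyl-CoA dehydrogenase, stood at 119, 114 and 122 against 682, 740.2 and 758 FPKM. The members that fell were both gatekeepers of fuel choice: Cpt1a, which admits long fatty acids to the mitochondrion, at 28.8, 27.7 and 27.9 against 11.5, 9.53 and 8.79 FPKM (−1.42 ± 0.10), and Pdk4, which shuts pyruvate dehydrogenase, at 274, 269 and 271 against 64.2, 63 and 61.9 (−2.09 ± 0.11). Pdha1, a subunit of that dehydrogenase, rose by 1.28 ± 0.06.

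Several genes of brown fat appeared at low levels. Of 20 on the list 12 passed the filter on low values and 12 rose (median 1.64). The uncoupling protein Ucp1 was listed at 0 in all 6 libraries, Prdm16, a fate regulator of brown fat, averaged at most 0.01 FPKM, and Zic1 was listed at 0. Cox8b held 0 FPKM in every 23-NC library and 5.83, 5.9 and 12.3 in 23-CATA. Cox7a1 likewise went from 0 to 5.66, 8.17 and 7.14, and Elovl3, a fatty acid elongase, from 0 to 6.2, 8.09 and 7.67. The coactivators Ppargc1a and Ppargc1b stood at 2.44 ± 0.238 and 1.97 ± 0.0781 FPKM in 23-NC, and at 8.31 ± 0.495 and 11.6 ± 0.966 in 23-CATA. Esrra, the nuclear receptor they act through, rose by 0.97 ± 0.11.

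Most genes of fat and sterol synthesis rose. Of 16 fatty acid synthesis genes 11 rose, 4 fell and 1 did not pass (median 0.74). Fasn, the synthase itself, went from 53.9, 56.3 and 52.9 to 244, 207 and 225 FPKM (2.03 ± 0.11), and Scd1, the main desaturase, from 311 ± 6.86 to 1189 ± 46.8. The genes that fell were the elongase gene Elovl5 (−0.78 ± 0.05), the desaturase genes Fads1 (−0.64 ± 0.06) and Fads2 (−0.58 ± 0.10), and Acss2 (−0.53 ± 0.10), which activates acetate. In cholesterol synthesis and its control 20 of 27 rose, 3 fell and 4 did not pass (median 0.78). Cyp51, the lanosterol demethylase (chromosome 5, 4080674 to 4104697), stood at 4.63, 4.26 and 4.24 FPKM in 23-NC and 60.5, 60.3 and 62.2 in 23-CATA (3.53 ± 0.06, adjusted p = 4.44e-27). Hmgcs1, the synthase at the head of the pathway (chromosome 13, 119690351 to 119708260), held 32.6, 31.9 and 31.2 against 231, 226 and 250.4 FPKM (2.85 ± 0.06). Insig1, which keeps SREBP factors in the endoplasmic reticulum when sterols are ample, held 12.2, 12.5 and 10.3 against 88.8, 93.5 and 91.8 (2.87 ± 0.05). Srebf2, the transcription factor of the pathway, fell by 0.42 on the log2 scale.

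The promoters of the 3 sterol genes that moved most are shown because the list members share letters in them. Below are the 250 bases before a RefSeq transcript start in GRCm38.p6, 5′ to 3′ on the gene's strand, with capitals marking CCAAT or its reverse complement and, in Hmgcs1, TCACCCCAC as well.
Cyp51 (chr5:4104698-4104947, minus strand): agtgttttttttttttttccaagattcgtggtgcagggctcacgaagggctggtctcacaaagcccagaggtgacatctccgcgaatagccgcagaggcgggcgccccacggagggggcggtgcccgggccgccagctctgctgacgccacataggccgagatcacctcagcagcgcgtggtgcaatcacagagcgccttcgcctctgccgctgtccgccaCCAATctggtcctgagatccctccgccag
Hmgcs1 (chr13:119690101-119690350, plus strand): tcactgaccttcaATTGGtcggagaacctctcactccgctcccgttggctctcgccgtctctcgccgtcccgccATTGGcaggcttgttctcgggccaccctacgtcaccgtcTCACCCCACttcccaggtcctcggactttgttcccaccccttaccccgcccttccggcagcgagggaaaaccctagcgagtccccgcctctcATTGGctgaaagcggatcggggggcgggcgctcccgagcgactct
Insig1 (chr5:28071162-28071411, plus strand): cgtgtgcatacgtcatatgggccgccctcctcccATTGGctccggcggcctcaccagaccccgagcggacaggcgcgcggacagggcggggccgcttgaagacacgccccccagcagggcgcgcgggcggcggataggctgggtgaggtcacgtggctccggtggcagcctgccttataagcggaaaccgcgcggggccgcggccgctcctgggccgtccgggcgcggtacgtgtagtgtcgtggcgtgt
Cyp51 holds 1 match to CCAAT, Hmgcs1 holds 3 and Insig1 holds 1. In all, 17 of 19 cholesterol genes with a promoter in the table held the letters CCAAT on either strand, 89.5%, against 41.2% of 9567 tested genes with such a window. The other lists searched ranged from 29.2% (elastic fibre and matrix glycoproteins) to 55.6% (collagens). TCACCCCAC, a sterol response element sequence, was found in 1 of the 19, Hmgcs1, and in 0.627% of all windows. In total 15 motifs were searched on both strands in the same windows. Of the 9567 genes 1925 had windows at more than 1 start and were counted where any of them held the letters, and for 4340 (45.4%) every window lay partly or wholly inside the gene's own RefSeq span. The others spelled out, with the share of all windows that held each, were GGAATG (12.4%), GGAATGT (2.92%, which contains the former), TTGCNNAA (8.93%), TGACGTCA (3.15%), AAGGTCA (3.46%) and TCAAGGTCA (0.261%, which contains the one before). Longer motifs are given by name. They were an NRF1 site (1.94%), an interferon-stimulated response element (3.19%) and 3 spellings of a direct repeat of nuclear receptor half-sites (0.24%, 0.0836% and 0.0523%). Those 3 overlap with AAGGTCA or each other. For the CArG box of SRF, 1 pattern held only its outer CC and GG (84.2%). Another was a single spelling with an A/T core (0.0314%), a case of the former. The box with any A/T core was not searched. A match is a description of letters, not of a bound site.

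Sugar metabolism moved at some steps. Of 24 glycolysis and hypoxia genes 12 rose, 9 fell and 3 did not pass (median 0.15). Pfkfb3, which makes the activator of phosphofructokinase, went from 4.3, 4.38 and 4.57 to 52.2, 47.9 and 49.9 FPKM, and hexokinase 2 (Hk2) from 12.1, 12.5 and 12.5 to 62.4, 63.9 and 61.4. Ldha, lactate dehydrogenase, rose by 1.29 ± 0.09. Genes known to be induced by hypoxia moved both ways. Adm (−1.48 ± 0.22), Car9 (−1.40 ± 0.17) and Ndrg1 (−1.37 ± 0.19) fell, as did the hypoxia factor Hif1a (−0.80 ± 0.09), while Vegfa (0.99 ± 0.06) and Bnip3 (0.62 ± 0.13) rose. The call for Bnip3 was lost with quantile normalisation (adjusted p = 0.0538).

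Matrix and contractile genes were lower in 23-CATA. Of 22 collagen genes tested 13 fell, 6 rose and 3 did not pass (median −0.42). Col1a1, the main chain of type I collagen (chromosome 11, 94936224 to 94953042), stood at 1093, 1090.0 and 1145 FPKM in 23-NC and 270.3, 269.6 and 206 in 23-CATA (−2.16 ± 0.10, adjusted p = 2.56e-17). Its partner chain Col1a2 averaged 836 ± 22.4 and 257 ± 33 FPKM. Those that rose most were Col15a1 (0.90 ± 0.10) and Col18a1 (0.86 ± 0.08), collagens of basement membrane zones, and Col11a2 (0.81 ± 0.08). Among 39 genes of elastic fibres, crosslinking and matrix glycoproteins 24 fell, 4 rose and 11 did not pass (median −0.69). Fibronectin (Fn1) went from 1133, 1218 and 1092 to 391, 318 and 293 FPKM, Lox, which crosslinks collagen, from 541, 565 and 569.7 to 148, 151 and 130.4, and the proteoglycan Ogn from 106 ± 3.05 to 16.4 ± 2.9. Of 22 proteases and inhibitors 16 fell, 4 rose and 2 did not pass (median −0.63). Timp3, an inhibitor of metalloproteinases, fell from 157, 166 and 156 to 21.9, 21.2 and 20.4 FPKM (−2.86 ± 0.09), and the gelatinase Mmp2 from 1175 ± 8.22 to 358 ± 36.8. Adam12, a membrane-bound protease, rose by 2.26 ± 0.12.

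Acta2, smooth muscle actin (chromosome 19, 34240336 to 34255585), had the largest fall among contractile genes, from 78.5, 73.8 and 73.9 FPKM in 23-NC to 6.74, 6.39 and 5.85 in 23-CATA (−3.38 ± 0.16, adjusted p = 1.51e-17). In that list 16 of 20 fell, 1 rose and 3 did not pass (median −0.55), including the tropomyosins Tpm1 (−1.17 ± 0.06) and Tpm2 (−1.04 ± 0.09), calponin 2 (Cnn2, −2.26 ± 0.10) and Csrp1 (−1.50 ± 0.09). Tagln was the member that rose, at low levels of 0.57 ± 0.25 and 1.05 ± 0.26 FPKM, a call lost without replicate 1 of 23-NC (adjusted p = 0.0853) or of 23-CATA (adjusted p = 0.082). The window before an Acta2 transcript start, of which 212 of 250 bases lie inside the gene span given above, is shown because GGAATG, the core of TEAD binding sites, marked in capitals, occurred in 9 of the 17 contractile genes with a window, 52.9%, against 12.4% of all and at most 21.7% in the other lists searched.
Acta2 (chr19:34255374-34255623, minus strand): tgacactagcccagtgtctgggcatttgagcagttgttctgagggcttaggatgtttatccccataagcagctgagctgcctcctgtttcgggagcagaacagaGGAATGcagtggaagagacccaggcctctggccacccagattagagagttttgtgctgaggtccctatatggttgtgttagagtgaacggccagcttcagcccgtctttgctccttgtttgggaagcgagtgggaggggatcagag
The list of 18 YAP targets and CCN genes also holds YAP and TEAD genes themselves. In it 10 fell, 4 rose and 4 did not pass (median −0.58), and GGAATG was not searched in it. Ctgf went from 27.3, 23.7 and 25.3 to 2.99, 3.82 and 3.29 FPKM and Cyr61 from 162, 157 and 169.8 to 69.7, 67.3 and 64.

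**Figure D3:**
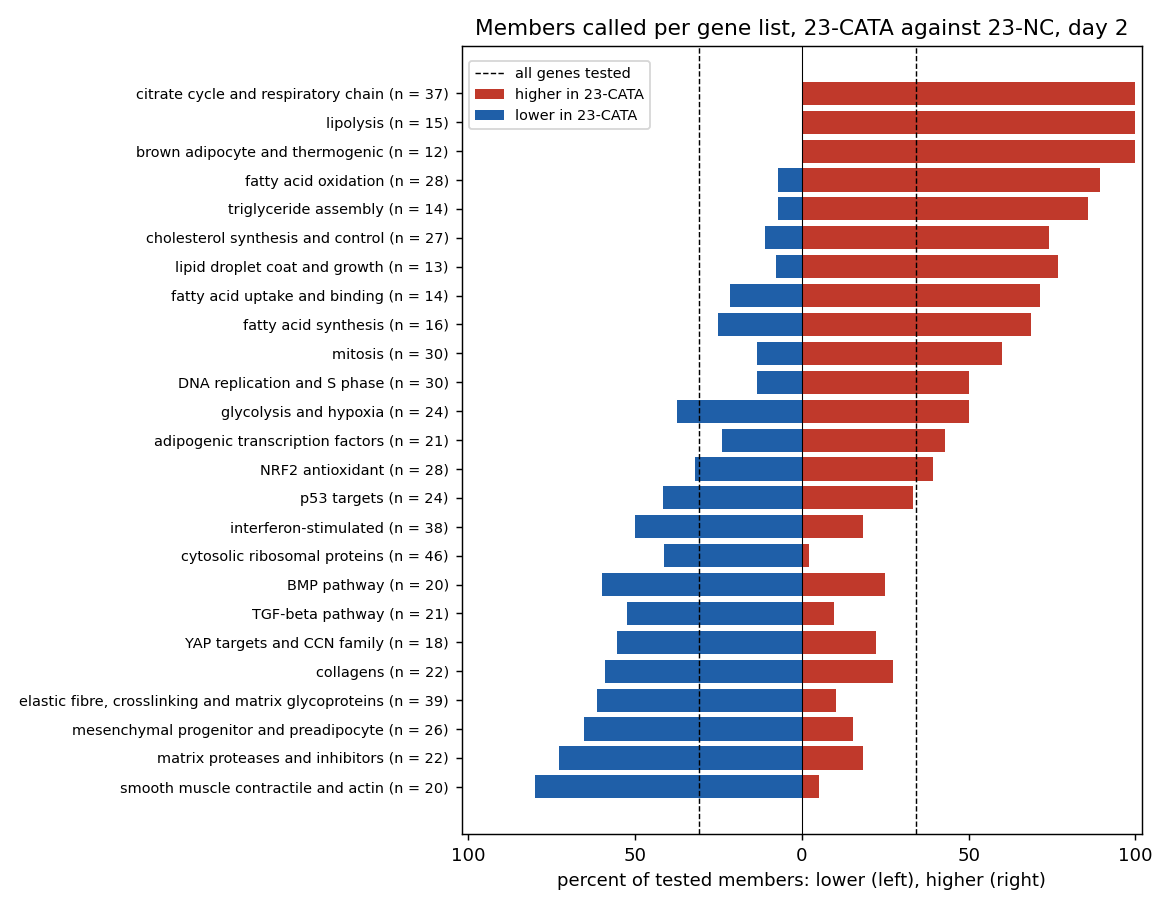
Percent of the tested members of 25 gene lists called lower (left, blue) or higher (right, red) in 23-CATA at day 2, with the number tested in brackets and dashed lines at the shares over all genes tested, 30.7% and 34.3%. Lists of mitochondria and lipid handling lie at the top, and contractile, matrix and progenitor lists at the bottom.

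The other genes of the 12 largest falls, chosen by the same rule as the rises, were of several kinds. Serpina3k, a serine protease inhibitor gene, stood at 38.8, 35.2 and 37.8 FPKM against 1.41, 1.26 and 1.85 (−3.94 ± 0.13), and Serpina1e at 29.9, 27.4 and 28.1 against 1.5, 1.32 and 0.63 (−3.80 ± 0.22). Both sit in clusters of near-identical copies between which reads may be split, so the assignment to these copies is uncertain, as it is for Ctla2b (−2.95 ± 0.14). L1cam, a cell adhesion molecule known from axons, held 27.6, 29.7 and 27.2 against 1.68, 1.52 and 1.26 FPKM. Klf2, a flow- and stress-induced transcription factor, went from 21.2 ± 0.922 to 1.85 ± 0.177, and Cryab, a small heat shock protein, from 55 ± 4.7 to 6.99 ± 0.191. Vwf, best known from endothelium, stood at 6.88, 7.06 and 6.66 FPKM against 0.18, 0.05 and 0.1. Of the same cell type, Tie1 was listed at 0, Pecam1 averaged 0.2 and 0.293 FPKM, and Egfl7 3.83 in both groups. Depp1 (−2.89 ± 0.24), Napsa (−2.76 ± 0.16) and Tinagl1 (−2.71 ± 0.27) were the others.

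More progenitor and signalling genes fell than rose. Of 26 mesenchymal progenitor genes 17 fell, 4 rose and 5 did not pass (median −0.39). Ly6a (Sca-1) went from 269, 261 and 265 to 109.7, 125 and 141 FPKM, Pdgfra from 20.7 ± 0.0361 to 13.9 ± 0.0265, and the repressor Snai2 from 37.8 ± 1.59 to 18.7 ± 1.79. Dlk1, the classical preadipocyte marker, was listed at 0 in all 6 libraries. In the TGF-β list 11 of 21 fell, 2 rose and 8 did not pass, led by Tgfb3 (−1.16 ± 0.07) and Fstl1 (−0.96 ± 0.06). In the BMP list 12 of 20 fell, 5 rose and 3 did not pass, and in the WNT list 11 of 23 fell, 6 rose and 6 did not pass, where the ligand Wnt5b rose from 0.16 ± 0.0265 to 4.8 ± 0.172 FPKM. NOTCH and hedgehog genes gave 6 falls and no rise among 12, with the ligand gene Jag2 at −1.07 ± 0.09. Of 19 genes of cartilage, tendon and bone 8 fell, 5 rose and 6 did not pass. Mgp, an inhibitor of calcification, fell by 1.28 on the log2 scale and Ptn, a heparin-binding growth factor, rose by 0.65 ± 0.09.

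Genes known to respond to agents of the medium differed both ways between the populations at day 2. The response to the agents themselves was not tested. Of 20 genes in the glucocorticoid list, which also holds the receptor gene Nr3c1, 7 rose, 8 fell and 5 did not pass (median −0.11). Fkbp5, a common gauge of glucocorticoid action, did not pass (396 ± 3.13 and 364 ± 20.3 FPKM) but was called lower with quantile-normalised values, at −0.42, and with median-ratio scaling, at −0.16. Tsc22d3 fell from 205, 203 and 216 to 69.4, 69 and 68.9, and Lcn2, a secreted siderophore-binding protein, rose from 625, 581 and 606 to 3185, 3850.4 and 3857. Among 17 cAMP-responsive genes 7 rose, 4 fell and 6 did not pass.

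Immune genes moved both ways at day 2. Of 38 interferon-stimulated genes 19 fell, 7 rose and 12 did not pass (median −0.19). Stat2 and Irf9, which act together in the interferon response, fell by 0.81 and 0.85 on the log2 scale, and Bst2 from 134 ± 2.41 to 64.6 ± 6.63 FPKM, while the GTPase Iigp1 rose by 0.87 ± 0.09. In the class I presentation list 7 of 16 fell, 5 rose and 4 did not pass, with the light chain B2m falling from 1702 ± 90.8 to 1173 ± 99.6 FPKM and the proteasome activator subunit Psme2 rising by 1.18 ± 0.14. Near-identical class I genes may share reads. Of 20 acute phase and complement genes 7 rose, 5 fell and 8 did not pass (median 0.06). The complement component C4b rose from 8.38 ± 0.54 to 30.1 ± 2.09 FPKM and the complement protease C1s1 fell from 46.1 ± 1.46 to 11.2 ± 0.832. The chemokines Cxcl1 and Ccl9 rose by 1.72 ± 0.10 and 1.66 ± 0.10 and Cx3cl1 fell by 0.87 on the log2 scale, in a list of 19 with 8 rises, 8 falls and 3 that did not pass. The letters of the interferon-stimulated response element were found in 13 of 25 interferon-stimulated genes with a promoter window, 52.0%, against the 3.19% of all windows.

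Cell cycle genes were modestly higher. Of 30 mitotic genes 18 rose, 4 fell and 8 did not pass, and no member differed by 1 log2 unit (median 0.27). Ccnb1 went from 3.57 ± 0.153 to 7.58 ± 0.441 FPKM, while Mki67 did not pass (5.58 ± 0.635 and 5.96 ± 0.664). Of 30 replication genes 15 rose, 4 fell and 11 did not pass (median 0.25), with cyclin E1 (Ccne1) at 1.06 ± 0.12. Targets of p53 split into 8 rises, 10 falls and 6 that did not pass, Cdkn1a rising by 0.88 ± 0.06 and Sesn1 falling by 1.08 on the log2 scale. Cytosolic ribosomal protein genes gave 19 falls, 1 rise and 26 that did not pass (median −0.28). That rise was Rpl30 (67.1 ± 13.9 to 154 ± 15.8 FPKM), which has processed copies in the genome. Of 22 genes of the unfolded protein response 10 rose, 7 fell and 5 did not pass. The co-chaperone Dnajb9 rose from 55 ± 1.82 to 224 ± 2.3 FPKM, and Chac1 (1.61 ± 0.10), Asns (0.92 ± 0.06) and the transcription factor Atf4 (0.94 ± 0.07) rose as well. The chaperones Hspa5 (−0.43 ± 0.06) and Hsp90b1 (−0.78 ± 0.06) fell, and Ddit3 did not pass (80.9 ± 2.11 and 75.9 ± 9.36 FPKM). Antioxidant genes gave 11 rises, 9 falls and 8 that did not pass, with Slc7a11 (1.99 ± 0.11) and Gstm1 (−1.17 ± 0.12) at the ends. The mitochondrial chaperones Hspd1 and Hspe1 rose by 1.78 ± 0.05 and 1.03 ± 0.14.

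Genes whose silencing is often tied to DNA methylation were mostly at the floor in both groups. Of 37 germline genes listed by the files, 4 passed the filter. Of these 2 rose, 1 fell and 1 did not pass, and Sycp3, a protein of the meiotic chromosome axis, moved most, from 0.463 ± 0.226 to 2.53 ± 0.289 FPKM. Of 30 imprinted genes 11 were tested and 2 rose, 6 fell and 3 did not pass. Igf2 went from 1.37, 1.15 and 1.32 to 0.36, 0.13 and 0.12 FPKM, and Peg3 and Meg3 were listed at 0. Of 39 HOX genes 10 were tested, 8 of them in the A cluster, and 4 rose and 2 fell.

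In all, 19 genes were at most 0.1 FPKM in every 23-NC library and at least 2 in every 23-CATA library, and 1, the betaine transporter gene Slc6a12, showed the reverse (2.65, 2.44 and 2.88 against 0.07, 0.07 and 0 FPKM). By level they began with Tet1 (18.9 ± 2.43 FPKM in 23-CATA), Ndufa4l2 (18.2 ± 1.87), Arxes2 (8.71 ± 2.07), B3galt2 (8.43 ± 1.2), Aldh3b2 (8.37 ± 1.07), Cox8b (8 ± 3.7), the short-chain fatty acid receptor Ffar2 (7.32 ± 0.338) and Elovl3 (7.32 ± 0.992). The values chose these genes, so their levels are a description. Of the 19 genes 13 had a RefSeq promoter window, with a median of 6 CG dinucleotides in the 250 bases before the start, taking the window with most where there were several. The median was 17 over 9567 genes tested, 15 over genes higher by 1 log2 unit or more and 14 over genes lower by that much. The 13 ran from 1 in Cox8b to 15 in Tet1, with 14 in Arxes2 and 9 in Ffar2. Cox7a1 had 4, and the windows of Cox8b and Cox7a1, from the low end, are shown with each CG in capitals.
Cox8b (chr7:140900447-140900696, minus strand): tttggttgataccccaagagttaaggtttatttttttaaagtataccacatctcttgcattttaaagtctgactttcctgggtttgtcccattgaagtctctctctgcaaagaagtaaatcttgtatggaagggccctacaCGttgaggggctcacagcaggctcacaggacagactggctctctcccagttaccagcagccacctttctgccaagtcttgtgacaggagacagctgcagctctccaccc
Cox7a1 (chr7:30183921-30184170, plus strand): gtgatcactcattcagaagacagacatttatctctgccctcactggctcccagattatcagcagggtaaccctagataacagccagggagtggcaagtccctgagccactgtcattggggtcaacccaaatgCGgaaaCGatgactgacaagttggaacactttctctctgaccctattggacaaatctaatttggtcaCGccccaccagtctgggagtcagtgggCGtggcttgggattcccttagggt
DNA methylation itself was not analysed here.

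Whether the difference had been there before induction was asked by setting it against day 0. The difference 23-CATA minus 23-NC changed between day 0 and day 2 for 6164 of 12231 genes (50.4%) in an interaction test, upward for 2434 (19.9%) and downward for 3730 (30.5%), with a median of −0.08 over all genes. Higher changes were 39.5% of these calls, 50.9% with quantile normalisation and 47.7% with median-ratio scaling. At day 0, 23-NC replicate 1 stood apart, with an FPKM sum of 660854 against 533495 and 526831 in replicates 2 and 3. Its median squared deviation from them was 6.55 and 6.28 times that of counting noise, against 1.54 between replicates 2 and 3. Without that library 6268 genes were called. Adipocyte genes had higher means in 23-CATA before induction too. Adipoq averaged 0.39 ± 0.187 FPKM in 23-NC and 186 ± 4.38 in 23-CATA at day 0, and its difference was smaller at day 2, with a change of −2.36 ± 0.13 (adjusted p = 2.17e-15). Fabp4 held 16.1 ± 0.985 and 1985 ± 88.5 FPKM at day 0, and its difference changed by −3.52 ± 0.37. For Pparg, at 16.8 ± 2.5 and 65.4 ± 3.32 FPKM before induction, the change was −0.51 ± 0.11, and for Cebpa, at 11.9 ± 0.858 and 48.8 ± 1.76, it was 0.50 ± 0.12. Tet1 averaged 0.0867 ± 0.0416 and 10.8 ± 1.35 FPKM at day 0, and its difference changed by 0.84 ± 0.16. Gpd1, at 0.59 ± 0.125 and 193 ± 6.47 FPKM at day 0, changed by 1.98 ± 0.09.

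Respiratory and sterol genes differed more at day 2 than before induction. All 37 citrate cycle and respiratory chain genes had a larger difference at day 2 than at day 0 (median change 1.09), with Cycs at 2.85 ± 0.16 from day 0 means of 17.6 ± 2.59 and 31.4 ± 0.921 FPKM. In the cholesterol list 24 of 27 changed upward and 2 downward (median 1.29), and in some genes the order of the means turned. Cyp51 averaged 7.65 ± 0.746 FPKM in 23-CATA and 18.3 ± 0.849 in 23-NC at day 0 (change 4.69 ± 0.09, adjusted p = 8.97e-26). Hmgcs1 (32 ± 1.42 against 53.2 ± 2.31 FPKM at day 0, change 3.56 ± 0.08) and Insig1 (21.1 ± 1.02 against 43.3 ± 1.79, change 3.88 ± 0.08) showed the same turn. Retnla (5.35 ± 0.23), the retinol dehydrogenase gene Rdh1 (4.29 ± 0.11) and the noncoding RNA Hotairm1 (3.35 ± 1.34) were the others among the 6 largest upward changes of named genes. Hotairm1 was uneven at day 2, at 0, 4.84 and 0 FPKM in 23-NC and 10.2, 26.7 and 16.2 in 23-CATA, and these libraries do not mark the strand of an antisense RNA such as this. Its change (adjusted p = 0.0385) was no longer called with a pseudocount of 0.1 FPKM (adjusted p = 0.0549), without the filter on low values (adjusted p = 0.0671), or when 1 of 8 libraries was left out (adjusted p = 0.0548 to 0.0936): 23-NC replicates 2 and 3 of day 0 and 1 and 3 of day 2, and 23-CATA replicates 1 and 2 of day 0 and 2 and 3 of day 2. Immediate early and interferon genes mostly changed the other way. Of 22 immediate early genes 19 changed downward and 1 upward (median −1.60). Fos averaged 13.8 ± 1.6 FPKM in 23-NC and 557 ± 13.8 in 23-CATA at day 0 and 141 ± 2.69 and 166 ± 12 at day 2, a change of −5.00 ± 0.10 (adjusted p = 8.97e-26). In the interferon list 35 of 38 changed downward and 1 upward (median −1.59). Ifit3 went from 40.7 ± 4.27 and 161 ± 3.23 FPKM at day 0 to 6.34 ± 0.377 and 2.44 ± 0.206 at day 2 (change −3.05 ± 0.16). The largest downward changes after Fos among genes called at day 2 were Pdk4 (−3.98 ± 0.16), Serpina3k (−3.94 ± 0.18), Btg2 (−3.81 ± 0.09), Ctgf (−3.75 ± 0.12) and Cd68 (−3.74 ± 0.26), a lysosomal protein gene. Acta2 and Col1a1, at 276 ± 36.7 and 1101 ± 19 FPKM in 23-NC and 308 ± 7.26 and 799 ± 24.3 in 23-CATA at day 0, changed by −3.55 ± 0.22 and −1.70 ± 0.14.

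**Figure D4:**
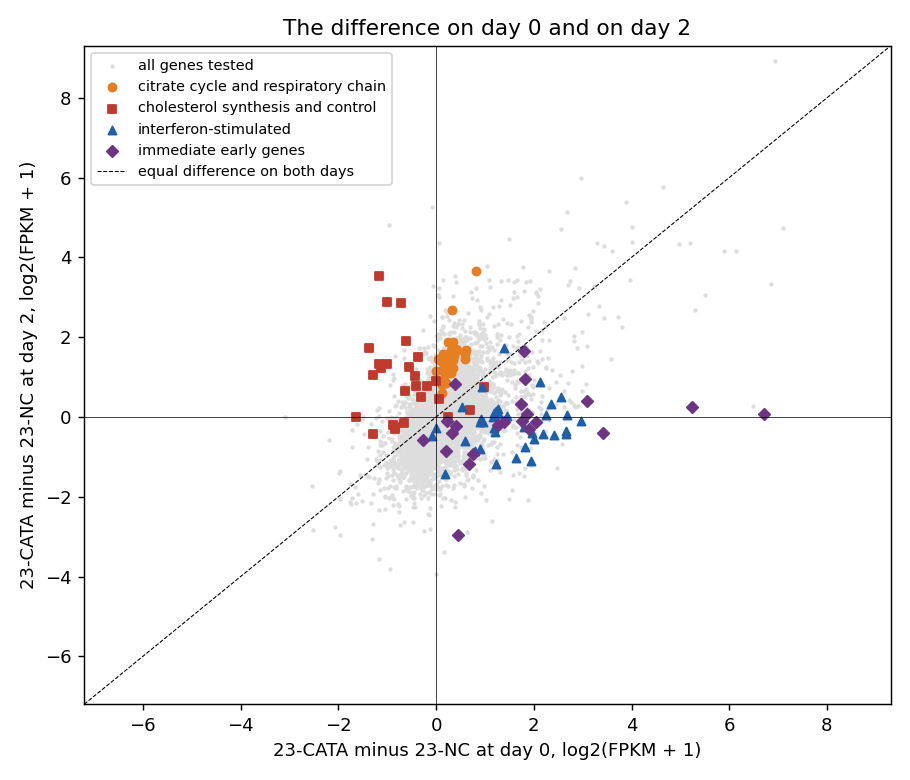
Difference 23-CATA minus 23-NC at day 0 (x axis) and day 2 (y axis), both in log2(FPKM + 1), for all genes tested (grey) and the members of 4 lists. Respiratory chain and most cholesterol genes lie above the dashed line of equal difference, and most interferon-stimulated and immediate early genes lie below it.

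The population labelled 23-Tet1 also carried Tet1 RNA, 6.85 ± 0.963 FPKM at day 2, and 23-CATA exceeded it by 1.34 ± 0.11. Between 23-CATA and 23-Tet1 8241 genes were called (67.4%), 3705 higher (30.3%) and 4536 lower (37.1%). After median-ratio scaling the balance turned, with 4190 higher and 3979 lower. This comparison shares the 23-CATA libraries with the main one. Respiratory chain genes were higher in 23-CATA than in 23-Tet1 in 37 of 37 cases (median 1.18), lipolysis genes in 14 of 15 and triglyceride genes in 13 of 14. Cebpa stood at 14.3 ± 0.965 FPKM in 23-Tet1, against 46.9 ± 3.39 in 23-NC and 260 ± 24.3 in 23-CATA. Gpd1 stood at 19.5 ± 1.03 in 23-Tet1, and Adipoq at 37.9 ± 1.18. Cholesterol genes had the opposite lean in this contrast, with 16 of 27 lower in 23-CATA than in 23-Tet1 and 6 higher (median −0.75). Cyp51, Hmgcs1 and Insig1 were nonetheless higher in 23-CATA, by 1.08 ± 0.06, 1.41 ± 0.06 and 0.63 ± 0.05. The widest gaps upward were Lcn2 (7.74 ± 0.13), Gpd1 (6.69 ± 0.06), Retnla (6.49 ± 0.16), Mrap (5.80 ± 0.11), Slfn2 (5.67 ± 0.12) and Slpi (5.59 ± 0.16). Downward they were Tnc (−4.88 ± 0.10), Klf2 (−4.62 ± 0.13), Osr1 (−4.19 ± 0.07), Cryab (−3.91 ± 0.15), Nrep (−3.71 ± 0.09) and Ogn (−3.60 ± 0.13). Tnc, the matrix protein tenascin C, averaged 8.78 ± 0.544 FPKM in 23-NC, 2.52 ± 0.405 in 23-CATA and 102 ± 9.21 in 23-Tet1.

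**Figure D5:**
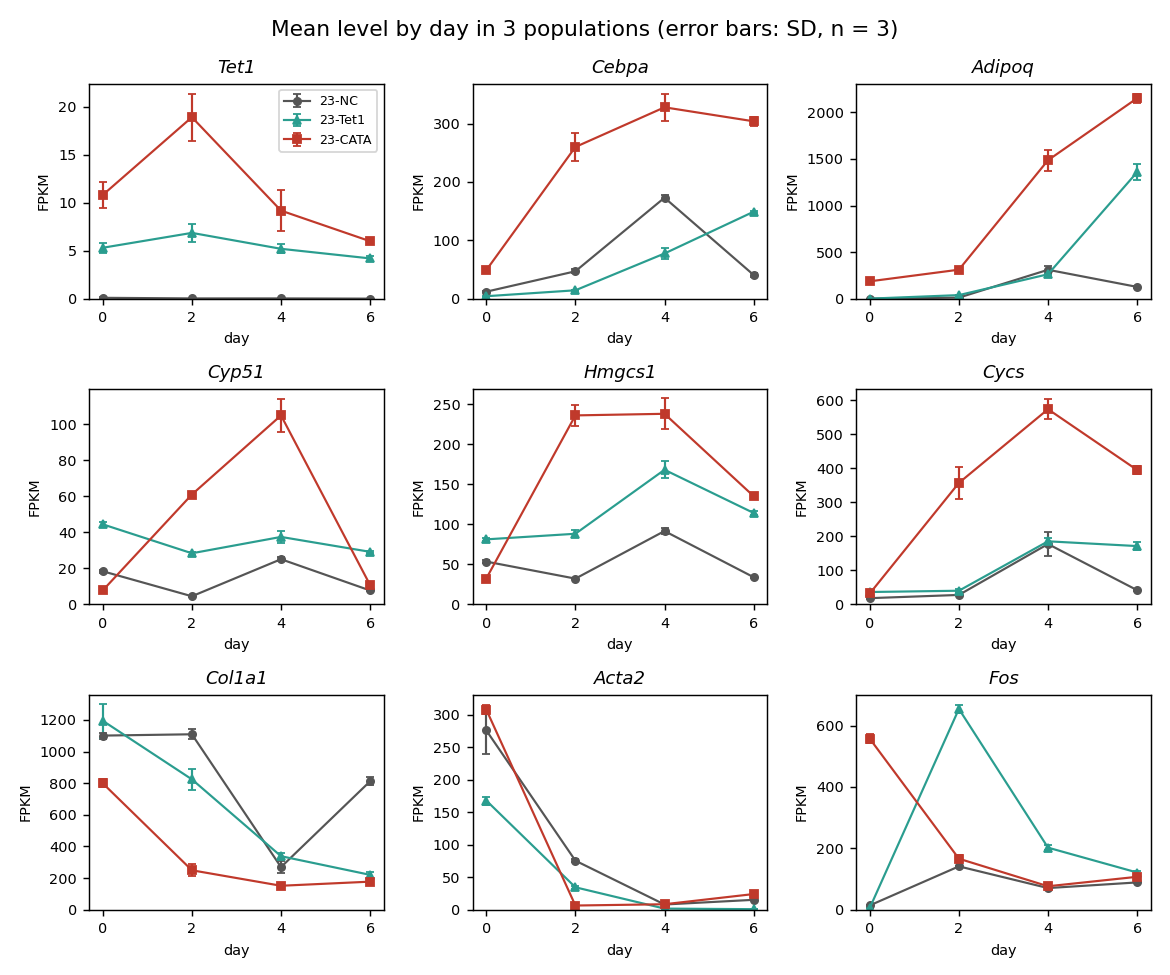
Mean FPKM (y axis, linear) of 9 genes at days 0, 2, 4 and 6 in 23-NC (circles), 23-Tet1 (triangles) and 23-CATA (squares), with SD over 3 libraries. At day 2 23-CATA lies above both other populations in Cebpa, Cyp51, Hmgcs1 and Cycs and below both in Col1a1 and Acta2.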

How the data were processed

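TruSeq RNA libraries of 60 samples were sequenced, per the labels, with a kit that does not mark strand, and the 36 of the table that holds this comparison (12 groups of 3) were used. Values are FPKM per gene symbol, deposited by the authors, made with STAR 2.4.1a and RSEM against mm10, per the submitters' processing notes. FPKM are not counts and are relative to each library's total, so depth was estimated from the spacing of low values. With limma 3.58.1 in R 4.3.3, 1 model with a mean per group and a mean-variance trend was fitted to log2(FPKM + 1) of 12231 genes, out of 24982, kept for reaching 1 FPKM in 3 libraries or more. Benjamini-Hochberg adjusted p-values cover all genes tested. Python 3.11.15, pandas 2.3.3 and matplotlib 3.10.9 did the rest, and the fit was tested on simulated data. Promoter windows and gene positions are RefSeq's, GRCm38.p6, matched by symbol for 9567 genes tested. Among the gene symbols 26 had been turned into dates and are not named.

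The members and gene lists were chosen with earlier results of these data known. Genes named by rule are a set of Tet and adipocyte genes, the 12 largest rises and falls, of each list the first 3 members and up to 3 rises and falls, up to 8 genes switched on or off, and up to 6 each way for the change from day 0 and the difference from 23-Tet1, with predicted gene models passed over. Acss2, Aqp7, Asns, Bnip3, Bscl2, Bst2, Dgat1, Dgat2, Ebf1, Esrra, Hif1a, Idh3g, Igf2r, Igfbp5, Igfbp7, Irf9, Klf5, Pdha1, Ppargc1b, Ptn, Snai2, Srebf1, Stat2, Tpm1, Tpm2 and Vegfa were added once their values had been seen. So were Egfl7, Lep, Peg3, Stmn2, Tie1 and Zic1, all but Egfl7 being listed at 0. Each fit was repeated with a block for the replicate number, with library weights, on the groups of the contrast alone, after quantile or median-ratio scaling, with all genes kept, with a pseudocount of 0.1, and without each library.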

Additional observations from a re-analysis of the deposited data

Results flagged for a closer look

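Results stand here because a test of the difference itself found the gap between 23-CATA and 23-NC to differ between day 0 and day 2. This held for 6164 genes. Among genes described above, the gap moved upward, on the log2(FPKM + 1) scale, by 5.35 for Retnla, 4.69 for Cyp51, 4.29 for Rdh1, 3.88 for Insig1, 3.56 for Hmgcs1, 3.35 for Hotairm1, 2.85 for Cycs, 1.98 for Gpd1, 0.84 for Tet1 and 0.50 for Cebpa. It moved downward for Fos (−5.00), Pdk4 (−3.98), Serpina3k (−3.94), Btg2 (−3.81), Ctgf (−3.75), Cd68 (−3.74), Acta2 (−3.55), Fabp4 (−3.52), Ifit3 (−3.05), Adipoq (−2.36), Col1a1 (−1.70) and Pparg (−0.51). Acta2 averaged 276 ± 36.7 FPKM in 23-NC and 308 ± 7.26 in 23-CATA at day 0, against 75.4 ± 2.68 and 6.33 ± 0.448 at day 2. For Hotairm1 the call was lost when 1 of 8 libraries was left out, as given above.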

How the results depend on the processing

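The number of genes called between 23-CATA and 23-NC at day 2 ranged from 7430 to 8619 over the alternatives, the number with 1 log2 unit or more from 1391 to 2135 (the highest with a pseudocount of 0.1 FPKM), the number with a changed gap since day 0 from 5672 to 7795, and the number against 23-Tet1 from 7740 to 8849. Leaving out each library in turn gave 7430 to 7615, 1391 to 1503, 5779 to 6268 and 7740 to 7900 in the same order. The labels give both populations replicates 1 to 3. Same-numbered day 2 libraries showed no shared deviation (correlations across genes −0.0211, −0.1124 and 0.0742), and unlike-numbered ones ranged from −0.1316 to 0.1427. With 3 libraries a group, this check cannot tell whether the libraries were prepared in pairs. With a replicate block 7940 genes were called. Among the higher and lower counts of the 50 gene lists, 18 moved past a set fold limit in at least 1 alternative, in 39 of 1300 repeats. Of 182 named genes followed in the day 2 comparison of 23-CATA and 23-NC 176 passed the test. Of these, 172 kept their direction and passed under all 13 alternatives. The calls lost were Fos (0.06, adjusted p = 0.491) and Bnip3 (0.28, adjusted p = 0.0538), both with quantile normalisation, and Rxra and Tagln, each without single libraries. Ddit3, which did not pass, ranged from −0.16 to 0.01 without single libraries. Depth, which is estimated, leaves genes under 1 FPKM imprecise, and 3 libraries a group with no stated source of replication limit all tests to the spread among these libraries.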

Other observations

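Outside the lists above, gene families recognised by symbol after their values were seen leaned as follows, against 34.3% higher and 30.7% lower over all genes tested. Of 78 mitochondrial ribosomal proteins tested 72 were higher in 23-CATA at day 2, none was lower and 6 did not pass (median 0.85). The import machinery of mitochondria (Timm and Tomm genes) had 20 of 22 higher, and ubiquinone synthesis (Coq genes) 11 of 11. Mitochondrial tRNA synthetases had 13 of 17 higher and none lower (median 0.77), and cytosolic ones 12 of 18 higher and 3 lower (median 0.33). Of 37 mitochondrial carriers 24 were higher and 6 lower.

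Peroxins, which build peroxisomes, had 14 of 16 higher (median 0.61), and proteasome subunits 33 of 37 higher and 1 lower (median 0.64). Serpins had 18 of 23 lower and 1 higher (median −0.77), cathepsins 7 of 9 lower and 2 higher (median −0.54), and ephrins and their receptors 9 of 15 lower and 3 higher (median −0.45). Rab genes, which direct vesicle traffic, gave 7 higher, 16 lower and 21 that did not pass (median −0.05). Serpins include near-identical copies between which reads may be split.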
